A study of Homo sapiens with 12 samples.

Results

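The voltage-gated sodium, calcium and potassium channel genes, with the calcium-activated potassium channels and the hyperpolarization-activated HCN channels, were followed in human neurons after knockdown of ZCCHC17. The members are 42 genes, matched by name to the rows of a table of 59653 genes: 8 sodium channel genes, 14 calcium channel genes, 17 potassium channel genes and 3 HCN genes. The rule uses gene names and no measured value, although the members were chosen with earlier results of these data known. Of the 42, 41 had enough counts to be tested, among 24671 genes tested in all. KCNA1, which codes for the Kv1.1 subunit, had 1 to 8 counts per library and was not tested.

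Total RNA was sequenced from neurons made from induced pluripotent stem cells of IMR-90, a human fetal lung fibroblast line. In 6 libraries (siNC) the cells had received a negative control siRNA, and in the other 6 (siZCC) an siRNA against ZCCHC17, a zinc finger and RNA-binding domain protein. All 12 share the 1 cell line, so differences between donors are not measured. The sample titles carry the letters NPC while the other labels say neuron, and no label gives a culture age, a time after siRNA or whether replicates were separate cultures. The p-values below therefore measure the spread between these libraries, which may be technical.

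Voltage-gated channels open when the membrane potential changes and shape the action potential. Sodium channels carry its upstroke, calcium channels couple it to transmitter release and gene regulation, and potassium channels end it and set the firing rate. Pore subunits form the conducting channel, auxiliary subunits control its trafficking and gating, and HCN channels carry a slow inward current near rest. In developing neurons the pore subunits are switched as cells mature, with SCN3A and T-type calcium channels prominent at early stages.

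Promoter sequences are shown for KCNC4 and KCNN3, the 2 members whose siZCC libraries all lay above the siNC libraries, and SCN9A, which had the most negative log2 fold change, so that their bases can be seen beside the values. They are RefSeq promoters of build GRCh38.p14, written 5′ to 3′ on the strand of the gene and cut to the bases upstream of the transcript. KCNC4 is at chr1:110210064-110210313 on the plus strand, KCNN3 at chr1:154870282-154870531 on the minus strand and SCN9A at chr2:166376002-166376194 on the minus strand. Capitals mark GC boxes (GGGCGG, or CCGCCC on the other strand) and CCAAT boxes (CCAAT, or ATTGG on the other strand). These motifs share no bases in the windows shown.
KCNC4: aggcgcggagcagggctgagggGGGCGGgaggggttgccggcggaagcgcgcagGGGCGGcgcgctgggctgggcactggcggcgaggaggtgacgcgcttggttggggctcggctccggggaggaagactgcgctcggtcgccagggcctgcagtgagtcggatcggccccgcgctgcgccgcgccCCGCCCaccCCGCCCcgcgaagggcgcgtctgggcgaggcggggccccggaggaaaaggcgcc
KCNN3: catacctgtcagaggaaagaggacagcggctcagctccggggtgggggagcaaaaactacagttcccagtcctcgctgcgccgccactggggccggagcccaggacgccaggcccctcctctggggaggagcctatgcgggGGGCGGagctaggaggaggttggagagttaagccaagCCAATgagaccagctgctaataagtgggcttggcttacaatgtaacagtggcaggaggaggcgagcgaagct
SCN9A: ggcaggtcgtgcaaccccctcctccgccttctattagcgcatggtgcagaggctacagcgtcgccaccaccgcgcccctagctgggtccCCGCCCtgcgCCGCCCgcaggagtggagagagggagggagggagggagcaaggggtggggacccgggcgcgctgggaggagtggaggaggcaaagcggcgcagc
The KCNC4 window of 250 bases had 4 GC boxes, 36 CpG dinucleotides and 79.2% G and C. In GENCODE v29 the KCNC4 gene starts 1029 bases downstream of the RefSeq start. The KCNN3 window had 1 GC box, 1 CCAAT box, 11 CpG dinucleotides and 62.0% G and C. The SCN9A window of 193 bases had 2 GC boxes, 16 CpG dinucleotides and 72.0% G and C.

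Promoters were found for 34 of the 42 members. A GC box lay in 20 of the 34 full promoter windows (58.8%), against 62.7% of the 13340 promoters of tested genes and 42.2% of all 27305. A CCAAT box lay in 11 (32.4%), against 34.4% and 33.0%. Among the members that changed, it was in 3 of the 5 promoters of genes higher in siZCC and in 0 of the 5 of genes lower, and in 8 of 24 of those not called. The TATA box letters TATAAA and the CRE letters TGACGTCA, searched on both strands, were in 0 of the 34 member promoters, against 6.34% and 2.56% of the promoters of tested genes. Each match is a run of letters only.

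The siNC libraries held 90755953 to 120023356 counts and the siZCC libraries 76115083 to 105389055. Levels are given in CPM, the read count of a gene relative to the TMM-normalised library size. The targeted gene checks the labels: ZCCHC17 had 53.99, 57.2 and 60.99 CPM as the lowest, median and highest siNC library and 9.37, 9.85 and 10.6 CPM in siZCC, with no overlap, a log2 fold change of -2.51 (SE 0.0402). Neuron markers were abundant for some genes and scarce for others: MAP2 had 1027 CPM and DCX 649 CPM in siNC, TUBB3 had 14.2 CPM and RBFOX3 1.27 CPM. The progenitor and glial marker VIM had 3550 CPM and the astrocyte marker GFAP 615.5 CPM, so by these markers the neuron label does not describe a pure population. Of the oligodendrocyte lineage markers MOG and SOX10 had 0 to 8 counts per library, and of the microglia markers P2RY12 had 0 to 8. IL1B, an inflammatory cytokine gene, set libraries apart in both groups: it had 449 to 1512 counts in siNC replicates 2, 3 and 6 and siZCC replicates 1, 4 and 5, and 2 to 12 in the other 6 libraries.

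Some marker lists differed between the groups. Over all tested genes 11.4% rose and 10.8% fell at an adjusted p below 0.05. Of 15 neuron markers 8 fell and 0 rose, with a summed level of 3879 to 4333 CPM in siNC and 3469 to 3954 CPM in siZCC. Of 10 neural progenitor markers 4 rose and 1 fell, with sums of 6351 to 6635 and 6451 to 6931 CPM. All 10 proliferation markers fell, with sums of 750.0 to 859.1 and 572.0 to 670.8 CPM. Of 8 astrocyte markers 2 rose and 2 fell. Of 4 tested endothelial markers 2 fell, with sums of 12.3 to 17.5 and 8.55 to 10.5 CPM, and of 3 tested pluripotency markers 2 rose, with sums of 15.4 to 16.98 and 19.99 to 21.9 CPM. The sums of the proliferation, endothelial and pluripotency markers did not overlap between the groups, and those of the neuron, progenitor and astrocyte markers did. Their part in the channel differences was not tested, and in bulk RNA fewer cells of a type and less RNA per cell cannot be told apart.

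In the siNC cells the most abundant channel transcripts per kilobase of exon were those of 1 A-type potassium channel subunit, 1 calcium channel beta subunit and 1 early sodium channel. KCND3 (Kv4.3) stood at 19.7 ± 0.818 CPM per kb, CACNB3 at 13.9 ± 0.584, SCN3A at 13.5 ± 1.77 and KCNN3 at 12.9 ± 1.02 (SD, n = 6 each). CACNA1H (Cav3.2) and HCN3 followed at 11.2 ± 0.923 and 11.15 ± 0.684 CPM per kb. KCND3 lay above all others beyond its spread, since its lowest library had 18.4 CPM per kb and the highest SCN3A library 16.1. CACNB3, SCN3A and KCNN3 did not differ beyond their spread, nor did CACNA1H and HCN3. The lowest tested members were CACNA1D at 0.0886 ± 0.01195 and CACNA1A, the P/Q-type pore gene, at 0.0757 ± 0.00457 CPM per kb. Exon lengths are unions over GENCODE v29 transcripts, 43.2 kb for CACNA1A, so a gene with many long isoforms reads low on this scale.

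**Figure D1:**
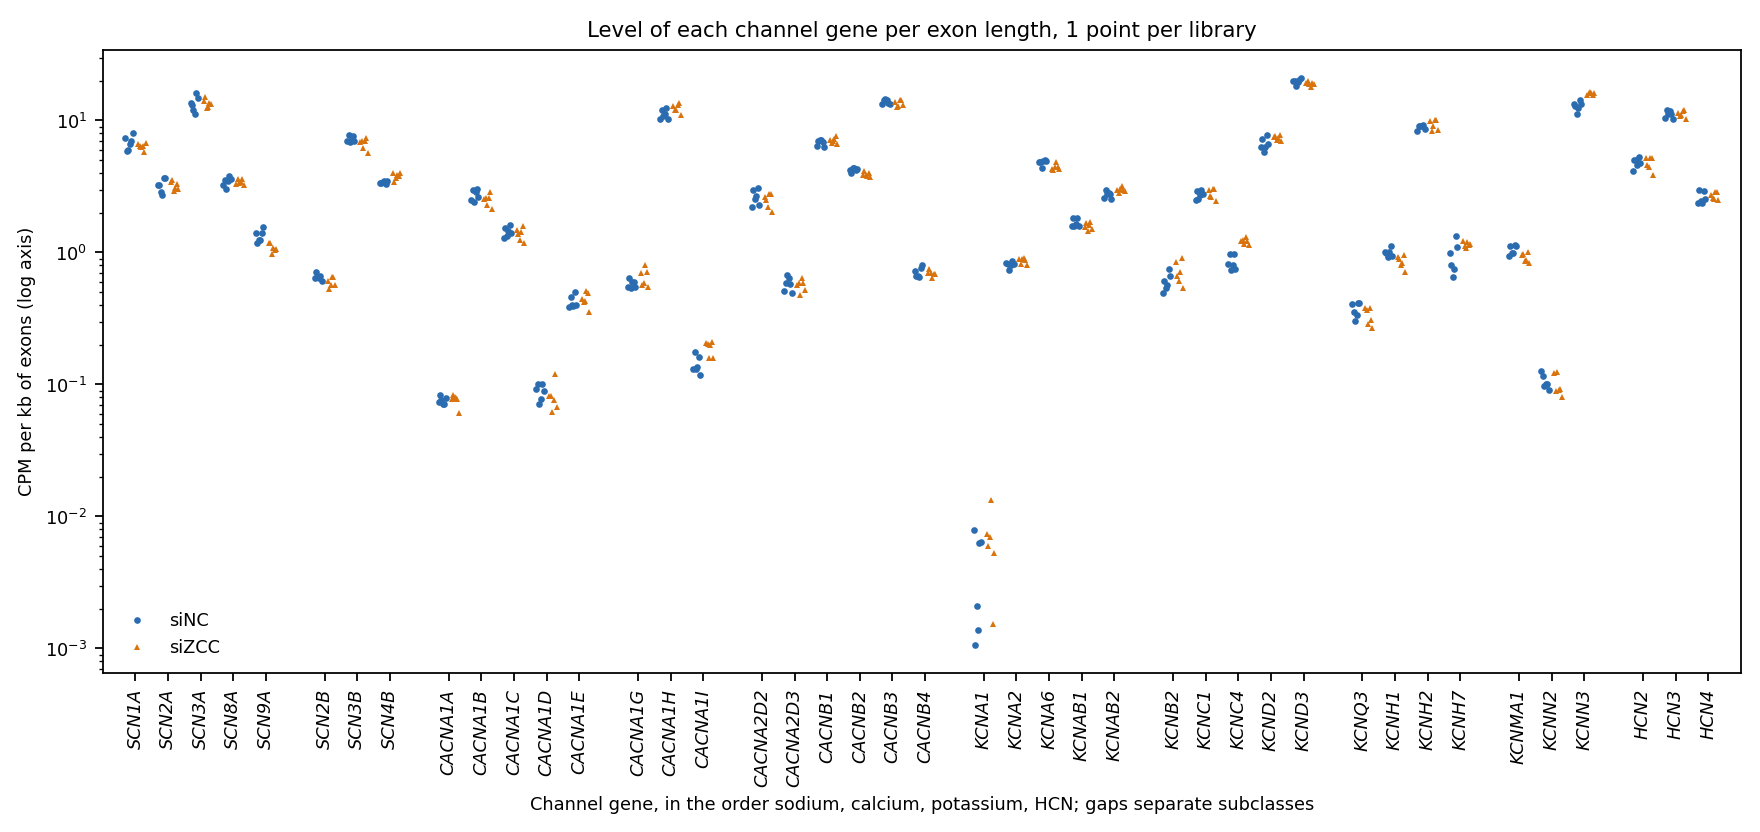
Levels of the 42 channel genes in CPM per kilobase of exon on a log axis, 1 point per library (circles siNC, triangles siZCC), with genes grouped by subclass. KCND3, CACNB3, SCN3A and KCNN3 stand highest in siNC (19.7, 13.9, 13.5 and 12.9 CPM per kb), and KCNA1 lowest.

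Within the sodium channel pore genes SCN3A made up 44.4% to 50.6% of the summed CPM per kb in siNC. SCN1A took 21.7% to 26.3%, SCN2A 10.8% to 12.04% and SCN8A 11.3% to 13.7%. Within the T-type calcium channel genes CACNA1H made up 93.7% to 94.2% in siNC. KCNN3 made up 64.9% to 72.05% of the SK channel family of KCNN1 to KCNN4. HCN3 made up 57.7% to 62.7% of the 3 HCN members.

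In siZCC against siNC, 10 of the 41 tested members changed (24.4%), where 22.2% of all tested genes did. A gene counts as changed, or called, at a Benjamini-Hochberg adjusted p below 0.05 in the quasi-likelihood test of edgeR. The 5 that rose were KCNC4, KCNN3, CACNA1I, SCN4B and KCNAB2, where 11.4% of all tested genes rose. The 5 that fell were SCN9A, KCNH1, KCNMA1, KCNA6 and CACNB2, where 10.8% of all tested genes fell. The share called among the channel genes was thus near that of all genes. The median log2 fold change of the members was -0.01, with 19 positive and 22 negative, and over all genes it was 0.00 (-0.0016). The median absolute log2 fold change was 0.09 against 0.11 over all genes. The groups did not overlap for 2 members, KCNC4 and KCNN3, where 9.74% of all tested genes had groups that do not overlap (5.25% higher in siZCC, 4.5% lower). Differences were small: 21 members were under 0.1 in absolute log2 fold change, 5 reached 0.25 and 1, KCNC4, reached 0.5.

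**Figure D2:**
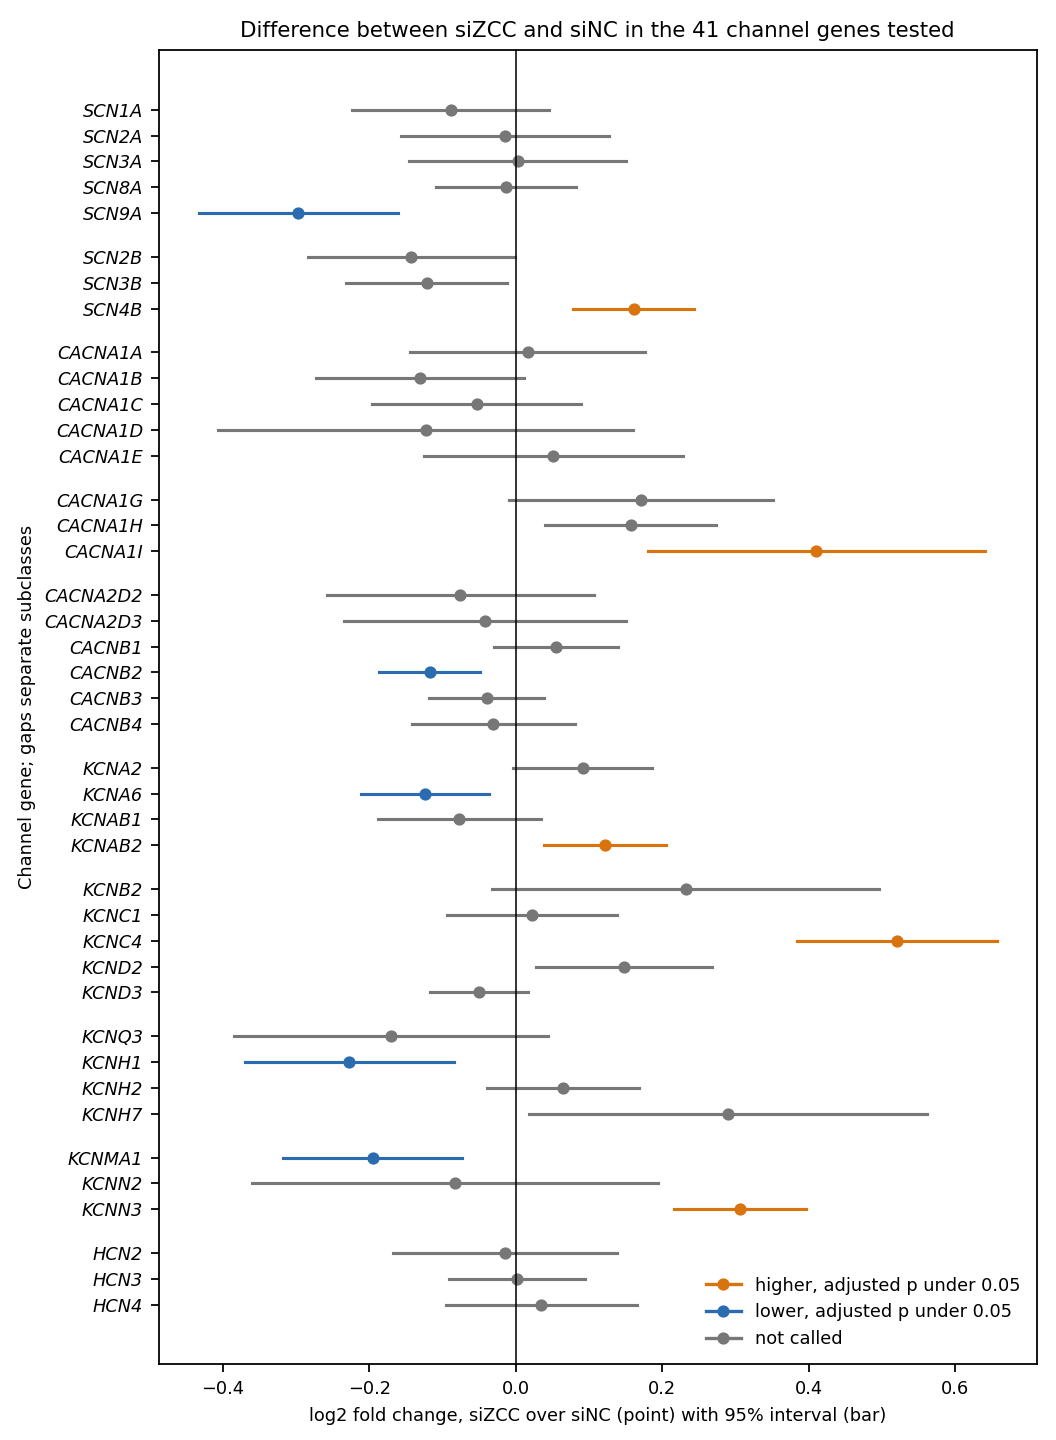
Log2 fold change of siZCC against siNC for the 41 tested channel genes with 95% intervals, grouped by subclass; orange (higher) and blue (lower) mark genes with an adjusted p under 0.05, and grey the others. KCNC4 lies at 0.52 and SCN9A at -0.30, and 21 genes lie within 0.1 of 0.

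By class, 6 of 16 tested potassium channel genes changed (37.5%, against 22.2% of all tested genes). Of these 3 rose and 3 fell, and the median log2 fold change of the class was 0.04. Of the 8 sodium channel genes 1 rose and 1 fell (25.0%; median -0.05). Of the 14 calcium channel genes 1 rose and 1 fell (14.3%; median -0.04). Of the 3 HCN genes 0 changed, with 0 at an unadjusted p under 0.05 and 0 called by DESeq2 or limma voom. The summed level of the potassium channel genes was 560.1 to 660.4 CPM in siNC and 640.1 to 674.1 CPM in siZCC, which overlap. No difference between classes, or of a class from all genes, was tested.

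Among the sodium channel pore genes, which carry the upstroke of the action potential, 1 of 5 fell and 0 rose. SCN9A, which codes for Nav1.7, a channel known from pain-sensing neurons, had 16.15, 18.15 and 21.5 CPM as the lowest, median and highest siNC library and 13.45, 14.8 and 16.2 CPM in siZCC. In 5 of the 6 siZCC libraries SCN9A lay below every siNC library, and the groups met at 1 library. Its log2 fold change was -0.30 (SE 0.0646, adjusted p 0.00337), with p = 0.00433 in a two-sided exact permutation test of log2 CPM. SCN9A lies on chromosome 2 in a cluster with SCN3A, SCN2A, SCN1A and SCN7A that spans 165087522 to 166494326 (GRCh38, GENCODE v29), or 1406.8 kb. The other members in the cluster had log2 fold changes of 0.00 (SCN3A), -0.01 (SCN2A) and -0.09 (SCN1A), and 0 of these 3 were called. SCN3A, the early neuronal sodium channel, had 110.8, 131.0 and 158.8 CPM in siNC and 122.1, 132.2 and 147.2 CPM in siZCC as lowest, median and highest. The 95% interval of its log2 fold change ran from -0.15 to 0.15. SCN8A (Nav1.6), the channel of the mature axon initial segment, had a log2 fold change of -0.01 with an interval of -0.11 to 0.08.

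SCN9A's part of the summed sodium channel pore transcripts, per kilobase, was 4.36% to 4.955% in siNC and 3.77% to 4.10% in siZCC, with no overlap. The shares of SCN1A, SCN2A, SCN3A and SCN8A overlapped between the groups. Exons of SCN9A share 8.17% of their length with the antisense gene AC010127.1, which had too few counts to be tested.

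Beta subunits of sodium channels are single-pass proteins that modulate gating and cell adhesion. SCN4B rose: it had 18.6, 19.2 and 19.7 CPM in siNC and 19.5, 21.7 and 22.8 CPM in siZCC as lowest, median and highest. In 5 of 6 siZCC libraries SCN4B lay above every siNC library, and its log2 fold change was 0.16 (SE 0.0393, adjusted p 0.00729). SCN2B and SCN3B had values of the other sign, -0.14 (adjusted p 0.141) and -0.12 (adjusted p 0.106), and did not pass, although SCN3B was called without siZCC replicate 5. SCN3B, the most abundant beta subunit gene per kilobase, had 65.6, 67.1 and 73.7 CPM in siNC and 53.9, 65.2 and 69.2 CPM in siZCC. SCN2B and SCN4B are neighbours on chromosome 11, at 118161951 to 118176673 and 118133377 to 118152888, both on the minus strand.

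Of the 5 high-voltage-activated calcium channel pore genes, which serve transmitter release and calcium entry at the soma, 0 changed, with 0 at an unadjusted p under 0.05. CACNA1B (N-type), the most abundant of them per kilobase, had 23.9, 27.3 and 29.8 CPM in siNC and 21.0, 25.2 and 28.45 CPM in siZCC, with a log2 fold change of -0.13 (adjusted p 0.18). CACNA1C and CACNA1D, the L-type genes, had -0.05 and -0.12, CACNA1E (R-type) 0.05 and CACNA1A 0.02. The CACNA1D interval, -0.41 to 0.16, was the widest below 0, at 1.82 CPM in siNC.

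All 3 low-voltage-activated (T-type) genes, whose channels open near rest and support burst firing, had positive values, and 1 passed. CACNA1I (Cav3.3) rose from 1.28, 1.45 and 1.90 CPM in siNC to 1.71, 2.175 and 2.28 CPM in siZCC (lowest, median and highest); 4 siZCC libraries lay higher than the whole siNC range. In log2 fold change it was 0.41 (SE 0.109, adjusted p 0.0123), the second largest among the members, at a low level. CACNA1H had 87.7, 95.15 and 106.8 CPM in siNC and 95.15, 107.5 and 117.6 CPM in siZCC. Its log2 fold change of 0.16 (SE 0.0553) had an adjusted p of 0.0505, just outside the threshold, and it was called in 9 of 23 alternative fits, also when siNC replicate 2, siNC replicate 5 or siZCC replicate 6 was left out. CACNA1G (Cav3.1) had 5.25, 5.56 and 6.20 CPM in siNC and 5.32, 6.29 and 7.74 CPM in siZCC, a log2 fold change of 0.17 (adjusted p 0.169).

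Auxiliary calcium channel subunits bring the pore to the membrane (alpha2delta) and set its gating (beta). Of the 6, CACNB2 fell and 0 rose. CACNB2 had 35.9, 38.1 and 39.2 CPM in siNC and 33.4, 34.6 and 37.3 CPM in siZCC; 4 siZCC libraries lay lower than the whole siNC range. The log2 fold change of CACNB2 was -0.12 (SE 0.0327, adjusted p 0.016). CACNB3, the most abundant beta gene, had 94.8, 99.8 and 103.7 CPM in siNC and 90.6, 96.35 and 102.9 CPM in siZCC, a log2 fold change of -0.04. CACNB1 (0.06), CACNB4 (-0.03), CACNA2D2 (-0.08) and CACNA2D3 (-0.04) were not called. Among the 4 beta subunit genes the share of CACNB1 per kilobase was 25.4% to 27.1% in siNC and 27.5% to 28.6% in siZCC, with no overlap, although its own level did not pass the test. The share of CACNB2 was 15.4% to 17.4% in siNC and 14.5% to 17.1% in siZCC, which overlap.

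The Kv1 group, which sets firing threshold along axons, had 1 gene higher and 1 lower of 4 tested. KCNAB2, a beta subunit that binds Kv1 channels inside the cell, had 24.2, 26.35 and 28.4 CPM in siNC and 27.1, 28.4 and 30.2 CPM in siZCC. The log2 fold change was 0.12 (SE 0.0396, adjusted p 0.035); 3 siZCC libraries lay higher than the whole siNC range. KCNA6 (Kv1.6), the most abundant Kv1 pore gene here per kilobase, had 18.6, 20.8 and 21.1 CPM in siNC and 17.9, 18.5 and 20.7 CPM in siZCC. Its log2 fold change was -0.12 (SE 0.0415, adjusted p 0.0405); 3 siZCC libraries lay lower than the whole siNC range. Both calls are weak: leaving out a single library removed that of KCNA6 for every library except siNC replicate 3 and siZCC replicate 4 (10 of 12, adjusted p up to 0.0812). That of KCNAB2 was lost in 7 of 12 (adjusted p up to 0.0814), on leaving out siNC replicate 1, 3 or 6, or siZCC replicate 1, 3, 4 or 5. All of the 4237 exon bases of KCNA6 also belong to the annotated gene GALNT8 on the same strand, which had a log2 fold change of -0.12 (adjusted p 0.0767), so the KCNA6 value is uncertain. KCNA2 (0.09) and KCNAB1 (-0.08) were not called.

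KCNC4 had the largest difference of any member. This gene codes for Kv3.4, a fast-activating and fast-inactivating channel of the Kv3 family, which repolarizes the membrane quickly. KCNC4 had 18.5, 20.4 and 24.5 CPM in siNC and 28.6, 30.7 and 32.6 CPM in siZCC as lowest, median and highest, so all 6 siZCC libraries lay above all 6 siNC libraries. The means were 21.2 ± 2.63 and 30.4 ± 1.47 CPM (SD, n = 6 each). The log2 fold change was 0.52 (SE 0.0647, 95% interval 0.38 to 0.66, adjusted p 3.23e-05). The two-sided exact permutation p of KCNC4 was 0.00216, which is the smallest value possible with 6 libraries per group. Groups that do not overlap always give this value, so it restates the separation of the libraries. The log2 fold change lay between 0.44 and 0.60, and KCNC4 stayed called in all 23 alternative fits. KCNC4, with the GC-rich window shown above, lies on chromosome 1 at 110211343 to 110283100 on the plus strand (GENCODE v29), and no exon of another annotated gene overlaps its exons.

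KCNC1, which codes for Kv3.1, the fast delayed rectifier of fast-spiking neurons, had a log2 fold change of 0.02 (adjusted p 0.819). Of the summed CPM per kilobase of KCNC1 and KCNC4, the part of KCNC4 was 21.5% to 24.9% in siNC and 28.9% to 31.7% in siZCC, with no overlap. A share falls when another gene of its group rises, and no share was tested.

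The Kv4 genes carry the A-type current that delays firing. KCND3 had 144.3, 155.6 and 163.7 CPM in siNC and 142.2, 150.0 and 157.0 CPM in siZCC, a log2 fold change of -0.05 (95% interval -0.12 to 0.02). KCND2 had 31.9, 36.15 and 42.85 CPM in siNC and 39.0, 41.4 and 43.35 CPM in siZCC, a log2 fold change of 0.15 (adjusted p 0.0712). KCND2 was called in 4 of 23 alternative fits, among them those without siNC replicate 2 or 5. KCNB2 (Kv2.2) had 0.23 (adjusted p 0.204) at a median of 2.12 CPM in siNC.

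Of the Kv7, EAG and ERG genes, which act near threshold and in repolarization, 1 of 4 fell and 0 rose. KCNH1 (EAG1) had 9.10, 9.81 and 10.9 CPM in siNC and 6.98, 8.47 and 9.45 CPM in siZCC; 5 siZCC libraries lay lower than the whole siNC range. KCNH1's log2 fold change was -0.23 (SE 0.0677, adjusted p 0.0227), and without siNC replicate 5 the adjusted p was 0.0501. Exons of KCNH1 share 36.9% of their length with AC096636.1 on the other strand and 16.1% with AL590132.1 on the same strand, 2 genes under 0.5 CPM. KCNH2 (ERG1), the most abundant of the 4, had 49.0, 53.3 and 54.5 CPM in siNC and 48.9, 55.9 and 59.6 CPM in siZCC, a log2 fold change of 0.06. KCNH7 (ERG3) ranged from 3.25 to 6.58 CPM within siNC, where its coefficient of variation was 26.7%, and from 5.43 to 6.03 CPM in siZCC, where it was 4.03%. Its log2 fold change of 0.29 (adjusted p 0.121) was called only with the replicate block and without siNC replicate 5 among 23 alternatives. KCNQ3 (Kv7.3), a subunit of the M-current, had -0.17 (adjusted p 0.256).

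The calcium-activated potassium channels produce the afterhyperpolarization that follows spikes, and 1 of 3 rose and 1 fell. KCNN3 (SK3) had 153.2, 178.4 and 194.7 CPM in siNC and 210.6, 218.7 and 223.7 CPM in siZCC, so all 6 siZCC libraries lay above all 6 siNC libraries. Its means were 175.8 ± 13.8 and 217.4 ± 4.78 CPM (SD, n = 6 each), and the siZCC libraries were the closer together. The log2 fold change of KCNN3 was 0.31 (SE 0.0429, 95% interval 0.22 to 0.40, adjusted p 9.77e-05), with an exact permutation p of 0.00216, again fixed by the separation. It ran from 0.27 to 0.34 and stayed called in all 23 alternative fits. KCNN3 lies on chromosome 1 at 154697455 to 154870280 on the minus strand, and its promoter window above holds the only CCAAT box of the sequences printed.

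The share of KCNN3 in the SK family per kilobase was 72.4% to 76.5% in siZCC against 64.9% to 72.05% in siNC, with no overlap. KCNN2 (SK2), at 0.685 CPM in siNC, had -0.08 (adjusted p 0.707). KCNN4, outside the 42 and named after its values were seen, fell with a log2 fold change of -0.43 (adjusted p 0.0215) at 2.77 CPM in siNC.

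KCNMA1 codes for the pore of the BK channel, opened by both voltage and calcium. KCNMA1 had 33.6, 37.7 and 40.9 CPM in siNC and 29.6, 32.7 and 36.1 CPM in siZCC; 3 siZCC libraries lay lower than the whole siNC range. The log2 fold change was -0.20 (SE 0.0578, adjusted p 0.0219), and the call was lost without siNC replicate 6 or siZCC replicate 4 (adjusted p up to 0.0541). BK channels also occur in smooth muscle, and 2 of 6 tested muscle markers fell, ACTA2 (-0.57) and TAGLN (-0.75), where 10.8% of all tested genes fell. The summed level of the list was 302.3 to 450.2 CPM in siNC and 201.3 to 287.2 CPM in siZCC. The list's MYH6, a cardiac gene, had 0 to 7 counts per library. Of its other genes in siNC, MYH11 had 0.583 to 2.205 CPM, DES 0.0656 to 0.2508 CPM and CNN1 8.17 to 10.9 CPM. Whether muscle cells were present, and their part in the KCNMA1 value, was not tested.

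**Figure D3:**
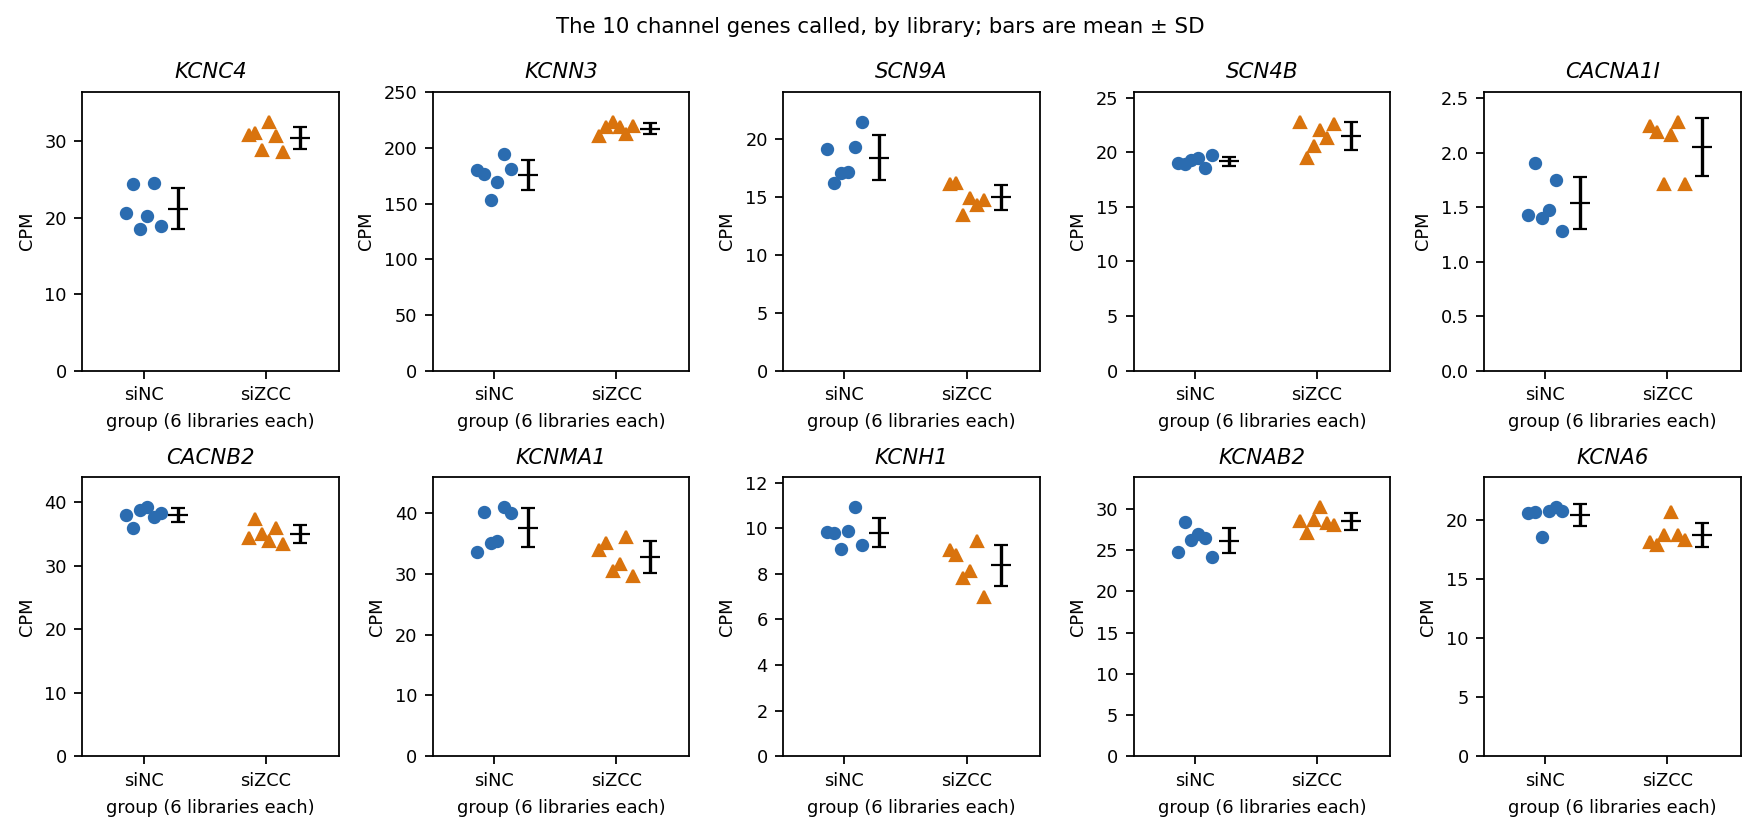
CPM in each library of the 10 channel genes that passed the test, 1 panel per gene with axes from 0, siNC (circles) and siZCC (triangles) side by side, with the mean and SD beside the points. In the panels of KCNC4 and KCNN3 all siZCC points lie above all siNC points, and in the other 8 the groups overlap.

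HCN2, HCN3 and HCN4 lay close to 0 in log2 fold change, at -0.01, 0.00 and 0.04. HCN3, the most abundant, had 42.1, 46.2 and 49.2 CPM in siNC and 42.3, 45.8 and 49.4 CPM in siZCC, with a 95% interval of -0.09 to 0.10 for its log2 fold change. The interval was -0.17 to 0.14 for HCN2 and -0.095 to 0.165 for HCN4. The share of HCN3 among the 3 HCN members was 57.7% to 62.7% in siNC and 58.6% to 61.7% in siZCC, which overlap.

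**Figure D4:**
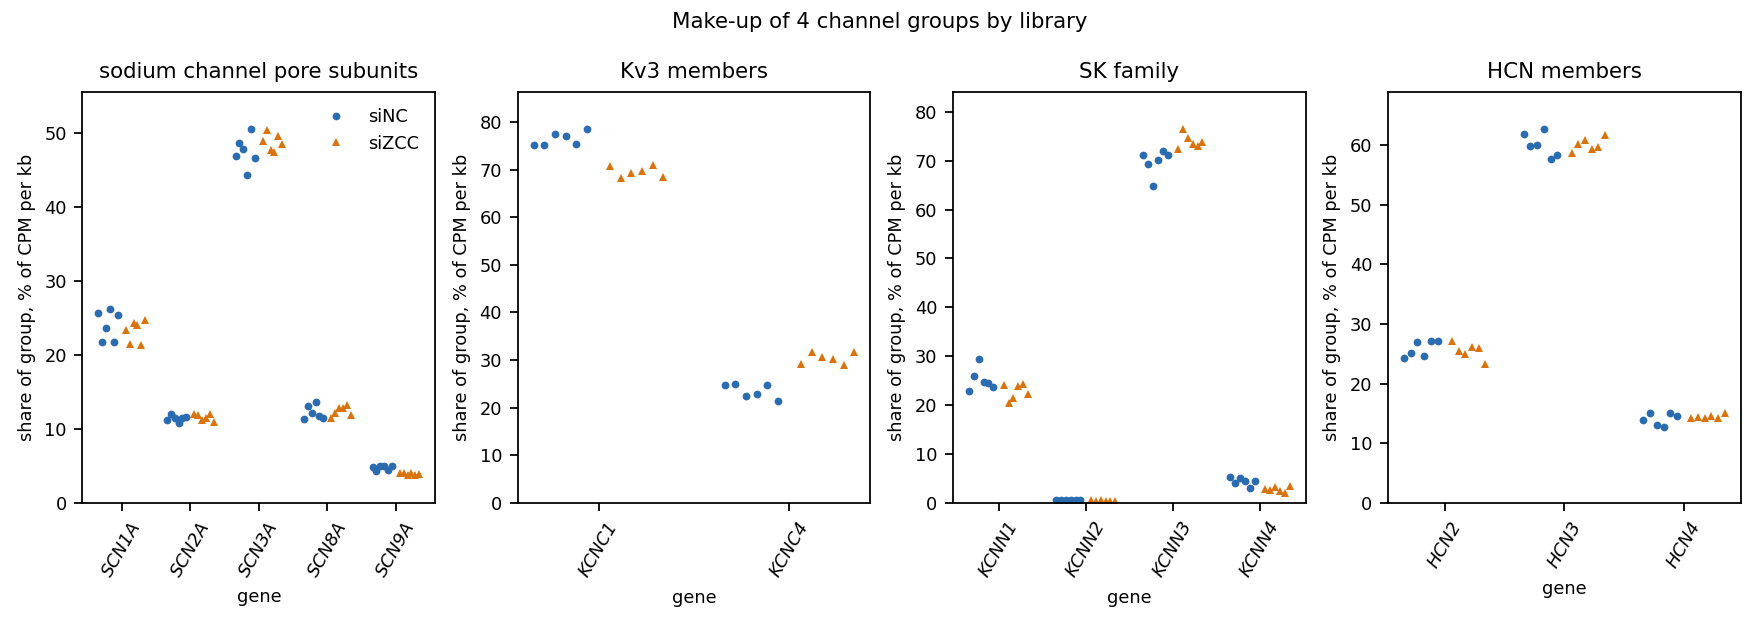
Share of each gene in the summed CPM per kilobase of its group, in percent, for each library of siNC (circles) and siZCC (triangles). KCNC1 and KCNC4 (KCNC4 in siNC up to 24.9%, in siZCC from 28.9%), KCNN3 in the SK family and SCN9A among sodium channel pore genes do not overlap between groups, and the 3 HCN members do.

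The libraries of a group differed in channel transcripts as a whole. For 21 of the 41 members the highest siNC library was replicate 5, and for 24 the lowest siZCC library was replicate 6. The summed neuron markers were highest in siNC replicate 5 (3879 to 4232 CPM in the other 5 siNC libraries) and second lowest in siZCC replicate 6 at 3575 CPM (3469 to 3954 in the others). Its astrocyte markers were the highest of all 12 libraries, at 1688 CPM. SiNC replicate 5 and siZCC replicate 6 are both on the low side of IL1B. Without siNC replicate 5, 11 members were called, 8 higher and 3 lower, and without siZCC replicate 6, 10, 6 higher and 4 lower.

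In the 6 libraries with high IL1B alone, 7 members were called, all higher: KCNC4, KCNN3, SCN4B, CACNA1I, CACNA1G, CACNA1H and KCNH2, with a median log2 fold change over the members of 0.07. In the 6 with low IL1B 2 were higher (KCNC4 and KCNN3) and 3 lower (SCN9A, KCNA6 and KCNH1), with a median of -0.07. With 3 libraries per group on each side, 2043 genes were called over all genes in the high libraries, 1051 higher and 992 lower (51.4% higher). In the low libraries 1602 were called, 870 higher and 732 lower (54.3% higher). KCNC4 had a log2 fold change of 0.60 and 0.44 and KCNN3 of 0.33 and 0.28 in the high and low libraries, and both stayed called. A test of the difference itself, a term for the siZCC against siNC contrast between the 2 sides, called 0 of 24671 genes (0%) and 0 of 41 members, with a smallest adjusted p of 0.935. At an unadjusted p under 0.05 it gave 4.77% of all genes and 14.6% of the members. These were 6 of 41: CACNA1G, KCNH2, CACNA1C, KCNH1, KCNC1 and CACNA1H. The difference was positive, that is higher in the libraries with high IL1B, for 38 of 41 members, with a median of 0.16, against a median of 0.00 (9e-04) over all genes. The members vary together over libraries, so these signs are not independent.

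Channel genes are long. The median genomic span of the members was 168.7 kb, from 4.24 kb (KCNA6) to 952.01 kb (CACNA2D3), against 33.4 kb for protein-coding genes tested. Among members spanning 100 kb or more 7 of 28 were called, 3 higher and 4 lower, and among shorter ones 3 of 13. Over protein-coding genes 29.9% of those spanning 100 kb or more and 27.8% of the shorter ones were called. Annotated exons of 25 members overlap those of another gene, and those of KCNC4, KCNN3, SCN4B and CACNA1I do not.

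Other subunits of the same channel families, outside the 42, were called about as often. Of 51 listed, 40 were tested, 5 rose and 5 fell (25.0%, against 22.2% of all genes; median log2 fold change -0.05). KCNF1 (Kv5.1), a silent subunit that joins Kv2 channels, rose from 19.1 ± 2.24 to 26.2 ± 1.91 CPM (SD, n = 6 each), a log2 fold change of 0.46 (adjusted p 1.6e-04), with no overlap. KCNQ5 (Kv7.5), an M-current subunit, fell with a log2 fold change of -0.38. KCNH8 (ELK1) rose with 0.20. KCNMB1, the smooth muscle BK beta subunit, fell with -0.29 (adjusted p 0.0106) and was named after its values were seen, while KCNMB4, the neuronal one, had -0.05 (adjusted p 0.428).

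Of 28 channel partners and anchors 27 were tested. Of these 5 rose and 4 fell (33.3%, against 22.2% of all genes), with a median log2 fold change of -0.02. KCNIP1, a Kv4-binding calcium sensor, rose with a log2 fold change of 0.24, and PEX5L (TRIP8b), which controls HCN trafficking, with 0.49. FGF13, which binds sodium channel tails, fell with -0.21 and LGI1, a secreted protein linked to Kv1 channels and synapses, with -0.32. The groups did not overlap for 5 of the 27 tested, these 4 among them, where 9.74% of all tested genes had groups that do not overlap. The 4 were named by smallest p, each with an adjusted p of 0.00346 or less.

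Of 30 leak and inward rectifier potassium channel genes, which set the resting potential, 22 were tested. Of these 5 rose and 2 fell (31.8%, against 22.2% of all genes), with a median log2 fold change of 0.07. KCNJ4 (Kir2.3) rose from 7.57 ± 0.732 to 12.7 ± 0.412 CPM (SD, n = 6 each), a log2 fold change of 0.75 (SE 0.0579, adjusted p 4.6e-07), with no overlap. KCNJ2 (Kir2.1), of the same subfamily, rose with 0.49 and KCNJ16 (Kir5.1) with 0.45. KCNK13 (THIK-1), a 2-pore-domain channel, fell with -0.68. The summed level of this list was 247.4 to 272.9 CPM in siNC and 278.0 to 294.0 CPM in siZCC, with no overlap.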

How the data were processed

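The authors deposited whole-number counts per gene symbol, 1 column per library, with no unassigned rows. Per the submitters' processing notes, bcl2fastq 2.17, STAR 2.7.6a, featureCounts 2.0.1 and build GRCh38 were used. The annotation and strand setting are not given in the sources used here, so reads of overlapping or antisense genes cannot be told apart. Per the labels, cells were lysed in Qiazol and libraries made with a directional NEBNext Ultra II kit.

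Counts were analysed in R 4.3.3 with edgeR 4.0.16 (filterByExpr, TMM, glmQLFit and glmQLFTest, all 12 libraries, no covariates), with Benjamini-Hochberg adjustment over all 24671 genes kept and a threshold of 0.05. The SE is the log2 fold change divided by the root of F. CPM is TMM-scaled, with a prior count of 2 on the log2 scale. Permutation tests are exact over 924 assignments and were run only on the called members, without adjustment. At a biological coefficient of variation of 6.55%, the spread between libraries and not counting error limits most members (44 to 23363 counts per library). The test was checked on simulated counts. Alternatives were other scalings and filters, DESeq2 1.42.0, limma 3.58.1 voom, the replicate number as a block and each library left out. An IL1B split at 1 CPM and a correction for GC content and length were added after seeing the data. Positions and exon lengths are from GENCODE v29, promoters from RefSeq. Figures were drawn with matplotlib 3.10.9.

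The members and lists were chosen with earlier results of these data known. All 42 members are named, with values by library for those called and for the highest per kilobase in each subclass, and up to 4 genes per other list by smallest p among those called at a mean of at least 1 CPM. Protein sequences were not used here. A gene that the rule names is left out of the text.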

Additional observations from a re-analysis of the deposited data

Results flagged for a closer look

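In each group of 6 libraries, the gap of the highest or lowest library to its neighbour was divided by the range of the group and compared with Dixon's 95% critical value for 6 values, over 118 groups of 59 quantities. Of these 5 exceeded it, where about 5.9 are expected by chance. CACNA1A in siZCC replicate 6 was the lowest at 1.405 log2 CPM against 1.748 to 1.865 in the other 5 (ratio 0.746). KCNA6 in siNC replicate 3 was the lowest at 4.216 log2 CPM against 4.365 to 4.401 (ratio 0.807). KCNA6 in siZCC replicate 4 was the highest at 4.372 log2 CPM against 4.165 to 4.231 (ratio 0.682), so both KCNA6 libraries lay towards the other group. PEX5L, the HCN trafficking partner, was the highest in siZCC replicate 2 at 1.884 log2 CPM against 1.611 to 1.691 (ratio 0.709). The library total of siNC replicate 4, 90755953 counts, was below the 109973707 to 120023356 of the other 5 siNC libraries (ratio 0.657).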

How the results depend on the processing

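Each result was refitted under 23 alternatives. The count over all genes, 5481, was 2043 in the libraries with high IL1B and 1602 in those with low IL1B, and 4484 to 5626 with a library left out. Of all genes called 51.4% were higher, and 46.4% with upper quartile scaling. Channel genes called were 10, and 7 (without siNC replicate 6) to 11 with a library left out, and 5 in the low IL1B libraries. Sodium channel calls were 2 to 3 with a library left out, and 1 in the high and 1 in the low IL1B libraries. Calcium channel calls were 2 to 3 with a library left out, 0 in the low IL1B libraries, and 4 with the GC content and length correction. Potassium channel calls were 3 (without siNC replicate 6) to 6 with a library left out, and 3 in the high IL1B libraries. They were 7 with the replicate block and 7 with the GC content and length correction. The 3 other channel lists had 26 calls, 22 to 29 with a library left out, 13 with high and 12 with low IL1B. HCN calls were 0 in every alternative.

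The replicate numbers did not pair the libraries, as same-numbered libraries correlated at -0.08 (-0.077) to 0.02 (0.0179) in their deviations. No siNC library correlated best with the siZCC library of its own number. With the replicate block, 14 channel genes were called, 8 higher and 6 lower, 4 of them calcium channel genes.

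KCNC4 and KCNN3 kept their calls in all 23 alternatives. Calls were lost for KCNA6 in 13, KCNAB2 in 11, KCNMA1 in 4, KCNH1 and CACNB2 in 2 each, and SCN9A, SCN4B and CACNA1I in 1 each: SCN9A with high IL1B (adjusted p 0.118), SCN4B and CACNA1I with low IL1B. The cause was not tested, but each side of the IL1B split holds 3 libraries per group.

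The values that changed sign were of genes not called with all libraries, among them KCNB2 (0.23 with all libraries), CACNA1G (0.17) and CACNA1D (-0.12). With the GC content and length correction these were CACNA1A (-0.032), KCNC1 (-0.0322), HCN3 (-0.014) and HCN4 (-0.0178). In the high IL1B libraries they were SCN8A (0.0141), CACNA1A (-0.0241), CACNA1C (0.0792), CACNA1D (0.0866), CACNA2D2 (0.0667), CACNA2D3 (0.0374), CACNB3 (0.0074) and HCN2 (0.0783). In the low IL1B libraries they were SCN3A (-0.0094), CACNA1E (-0.0964), CACNA1G (-0.034), CACNB1 (-0.0068), CACNB4 (0.0028), KCNB2 (-0.0024), KCNC1 (-0.0861), KCNH2 (-0.047), HCN3 (-0.067) and HCN4 (-0.0167). Without a filter they were SCN3A (-0.0042) and HCN3 (-0.0032), and with upper quartile scaling SCN3A (-0.0057) and HCN3 (-0.006). With a library left out, ranges that crossed 0 were SCN2A (-0.0582 to 0.0244), SCN3A (-0.0439 to 0.061), SCN8A (-0.0466 to 0.0135), CACNA1A (-0.0133 to 0.0711), CACNA2D3 (-0.0837 to 0.0081), CACNB4 (-0.0561 to 0.0088), KCNC1 (-0.0011 to 0.0511), HCN2 (-0.0548 to 0.0346) and HCN3 (-0.0204 to 0.0231).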
